A study of Oryza sativa with 2 samples.

Results

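MADS-box genes encode transcription factors that bind DNA through the conserved domain that gives the family its name. The type II, or MIKC, members act as dimers and larger complexes and are best known for setting the identity of floral organs and the time of flowering, while several type I members act in the early endosperm. Here the family was taken as all genes whose symbol or synonym in the rice gene table is MADS followed by a number, with or without an Os prefix, and that had a probe set listed for that gene alone. This gave 31 genes of the 17905 read on the array. By their numbers, 30 fell into the MIKC groups used here. MADS33 was left ungrouped because the number lists of these groups do not hold it. No gene found by this rule carried a number of the type I or MIKC-star genes, which were not analysed here.

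The study profiled endosperm of the japonica cultivar Zhonghua11, picked by hand under a dissecting scope 2 days after pollination, before the tissue forms cell walls. The plants grew in a phytotron under days of 12 h at 28 °C and nights of 12 h at 22 °C. There was 1 group of 2 samples, each on its own Affymetrix rice array, and no other stage, tissue or genotype, and what follows describes levels and how far the arrays differ, without a group effect or a test. Separate plants are not stated for the samples, and the spread between them may be technical. In such tissue samples, fewer nuclei or cells that express a gene and less RNA in each cannot be told apart.

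Signals are linear intensities. The arrays carry 64 probe sets for reporter genes and transgenes, which untransformed rice should lack, and background was set at the 95th percentile of their signals. It came to 52.7 on array 1 and 37.9 on array 2. A gene is called above background where its signal passed that level on both arrays. Probe sets differ in how strongly they bind their targets, so each gene was set against background and genes were not ranked by signal. The endosperm markers NF-YB1, SWEET11, WX, ALK and AGPS2 were all above background, with a summed signal of 53220.9 on array 1 and 50147.4 on array 2. The 2 embryo or meristem markers read, OSH1 and WOX11, and the anther marker TDR were below it on both arrays. Each of these lists had 4 planned names, and the other names could not be read. OSH1 was read through 1 of its 2 probe sets. All 4 markers of leaf or green pericarp, CAB2R, RCABP89, OEE3 and RBCS, were above it, with summed signals of 3237.3 and 3529.8. Most of this came from CAB2R, with signals of 2746.8 and 2999.5. These sums are over different probe sets and do not compare amounts of tissue. The part of such other tissue in the MADS-box signals was not tested.

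Of the 31 MADS-box genes, 17 (54.8%) were above background, against 74.1% of all genes. Among the 2915 genes that carry any symbol or synonym besides a locus number, the share was 76.6%. The family had a median log2 signal of 6.13, and all genes together one of 8.58, each gene taken at its mean over the arrays; these medians are over different probe sets, whose affinities differ, and do not compare amounts of transcript. Of the other 14 genes, 4 passed background on array 2 only, 1 on array 1 only, and 9 on neither array. Of all 17905 genes, 737 passed on array 2 only, 269 on array 1 only, and 3636 on neither. Of the 17 genes, 6 lay over 10-fold above background on both arrays, namely MADS8, MADS14, MADS22, MADS55, MADS56 and MADS58, against 61% of all genes above background and 45.2% of all genes. At the other end 4 lay less than 2-fold above it on at least 1 array, namely MADS1, MADS6, MADS17 and MADS18. These last 4 were lost when the highest reporter probe set of each array, at 92.3 and 98.7, was taken as background, which left 13 of 31 members, against 65.5% of all genes. A stricter background, the median plus 3 scaled median absolute deviations of the log2 reporter signals, left 6 members, the same 6 genes as above, against 42.7% of all genes. It lay at 588.2 and 573.4, far above the highest reporters and close to the 10-fold cut, so the match is no separate support.

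**Figure D1:**
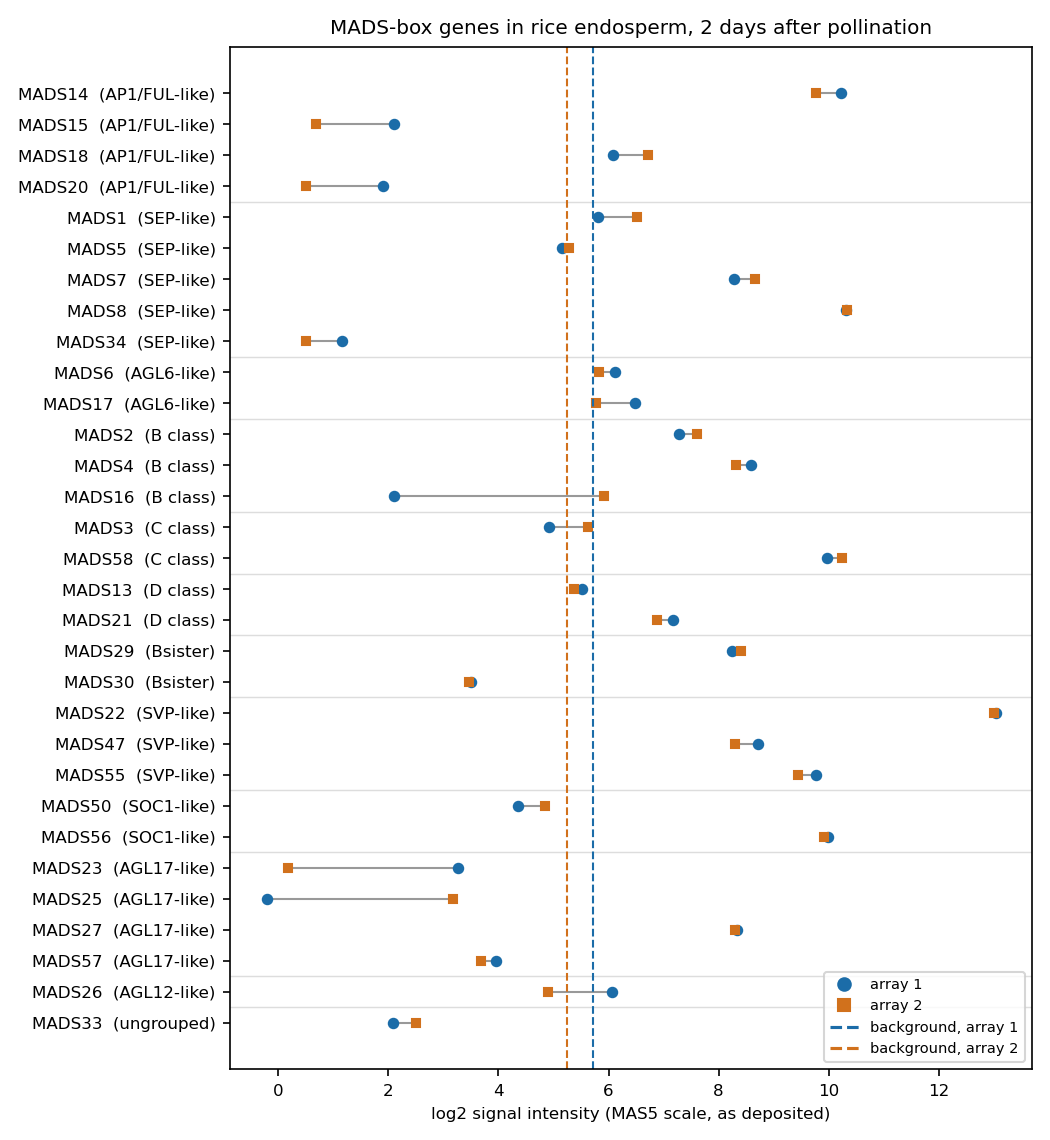
Log2 signal (x axis) of the 31 MADS-box genes (y axis, by group) on array 1 (circles) and array 2 (squares), with each array's background as a dashed line and a grey line joining the 2 values of a gene. All 3 SVP-like genes lie right of both lines. Of the 10 groups with 2 or more genes, 8 have members above background on both arrays and members that are not. These counts rest on groups of few genes, and 74.1% of all genes were above background. In the B, C and D classes, the member that is not passed background on array 2 alone. Background was lower on array 2 (37.9) than on array 1 (52.7).

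All 3 SVP-like genes were above background, against 74.1% of all genes. This share stands beside the count of every group below, and each group holds few genes. Genes of this group, named after an Arabidopsis repressor of flowering, act in flowering time and, in rice, in responses to brassinosteroid hormones. MADS22 (listed as LOC4330805) read 8392.2 on array 1 and 8225.0 on array 2, a mean log2 signal of 13.02 ± 0.02 (SD, n = 2). These were 159 and 217 times background, far above it on both arrays. Its single probe set is of the kind whose probes can match transcripts of more than 1 gene (suffix _s_at), so related transcripts may share in this signal. MADS55, which modulates brassinosteroid responses, had signals of 875.1 and 699.7 (9.61 ± 0.23). MADS47, a negative regulator of brassinosteroid signalling whose maize relative activates zein storage protein genes, had signals of 423.0 and 314.6 (8.51 ± 0.30). The log2 differences, array 2 minus array 1, were -0.03, -0.32 and -0.43 for MADS22, MADS55 and MADS47. All 3 genes were thus lower on array 2, as were 6979 of the 13263 genes above background.

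The SOC1-like genes fell on opposite sides of background. MADS56, which opposes MADS50 in the control of flowering under long days, had signals of 1021.8 and 965.0 (9.96 ± 0.06). MADS50, a promoter of flowering, had signals of 20.4 and 28.7 (4.60 ± 0.35), below background on both arrays.

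Of 4 AP1/FUL-like genes, which in rice promote flowering and inflorescence meristem identity, MADS14 and MADS18 were above background. MADS14 had signals of 1201.3 and 878.8 (10.005 ± 0.319) in the probe set read, more than 20 times background on both arrays. MADS18 had signals of 67.8 and 105.2 (6.40 ± 0.45), which puts it close to background on array 1. The gene table also lists the names MADS2 and MADS28 for this gene, and it is counted here as MADS18 alone. MADS20 had signals of 3.8 and 1.4, below background on both arrays. MADS15, which acts in palea and meristem identity, had signals of 4.3 and 1.6 in the probe set read, but its other probe sets read differently, as described below.

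Of 5 SEP-like genes, the E class factors that join the other classes in complexes in floral organs, MADS1, MADS7 and MADS8 were above background. MADS8, which together with MADS7 specifies the inner floral organs, had signals of 1281.3 and 1294.4 (10.33 ± 0.01), and MADS7 had signals of 312.8 and 405.8 (8.48 ± 0.27). MADS1, known for lemma and palea identity, had signals of 56.3 and 91.1 (6.16 ± 0.49), only just over background on array 1. MADS5 had signals of 35.8 and 38.9 (5.22 ± 0.08) and passed background on array 2 alone, by a narrow margin. MADS34, which acts in inflorescence branching, had signals of 2.2 and 1.4, far below background on both arrays.

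Both AGL6-like genes were above background, and both only weakly. MADS6, a regulator of floral organ and meristem identity, had signals of 69.1 and 56.9 (5.97 ± 0.20), 1.311 and 1.501 times background. Its paralog MADS17 had signals of 89.6 and 54.4 (6.13 ± 0.51), 1.70 and 1.44 times background.

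Among the 3 B class genes, which act in lodicules and stamens, both PISTILLATA-type genes were above background. MADS4 had signals of 386.1 and 320.7 (8.46 ± 0.19) and MADS2 signals of 156.4 and 194.6 (7.45 ± 0.22). MADS16, the APETALA3-type partner that such factors dimerize with in flowers, had signals of 4.3 and 60.5 (4.01 ± 2.69). It was thus below background on array 1 and less than 2-fold above it on array 2, so the size of the gap between the arrays is not well measured.

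The C and D class genes were each split, with 1 gene above background and 1 not. MADS58, a C class gene of stamen and floral meristem control, had signals of 1007.9 and 1213.7 (10.11 ± 0.19). The other C class gene, MADS3, had signals of 30.4 and 49.3 (5.27 ± 0.49) and passed background on array 2 alone. In the D class, the ovule identity gene MADS13 had signals of 46.1 and 41.3 (5.45 ± 0.11). It passed background on array 2 alone, where its signal was lower but background was 37.9, against 52.7 on array 1. Its relative MADS21 had signals of 144.3 and 117.2 (7.02 ± 0.21).

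The Bsister genes, whose group is known for roles in ovules and in the maternal tissues of the seed, were split as well. MADS29, needed for the breakdown of the nucellus around the young endosperm, had signals of 304.6 and 339.3 (8.33 ± 0.11), 5.78 and 8.95 times background. MADS30 had signals of 11.3 and 11.0 (3.48 ± 0.03), below background on both arrays and read through a probe set of the _s_at kind. MADS13, MADS21 and MADS29 are themselves markers of ovule, seed coat or nucellus, and whether maternal tissue picked with the endosperm gave their signals was not tested.

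Of 4 AGL17-like genes, 1 was above background. MADS27, known from roots and the response to nitrate, had signals of 324.2 and 315.4 (8.32 ± 0.03). MADS57, which acts in tillering, had signals of 15.6 and 12.9 (3.82 ± 0.19). MADS23 had signals of 9.6 and 1.1 and MADS25, another gene of root growth, signals of 0.9 and 9.0, with these 3 genes below background on both arrays. MADS26, an AGL12-like gene of stress responses, had signals of 67.0 and 29.7 (5.48 ± 0.83) and was the only member above background on array 1 alone. The ungrouped MADS33 had signals of 4.2 and 5.6, below background on both arrays.

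Several members have more than 1 probe set, and these show how far a reading depends on the probes. The 31 genes had 39 probe sets, with 27 genes read by 1 each. All 4 probe sets of MADS14 were above background on both arrays, and their mean log2 signals ran from 7.842 to 10.005, a span of 4.48-fold. Both probe sets of MADS27 were above background, at 8.32 and 6.41, and both of MADS23 were below it. For MADS15 the call turned with the probe set: the one read lay at 1.39, and the other 3 lay at 5.75, 6.10 and 6.18, all above background on both arrays, the lowest of them with signals of 54.3 and 53.5. Of these 3, the ones at 5.75 (suffix _x_at) and 6.18 (_s_at) are of kinds whose probes can match other transcripts, and the one at 6.10 (_a_at) is not. MADS15 counts as above background if any probe set of a gene is taken, which makes 18 of 31 genes, against 75.9% of all genes under the same rule. Of all genes with several probe sets, 58.9% had probe sets over 4-fold apart, and of these 4 members MADS14 and MADS15 did.

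**Figure D2:**
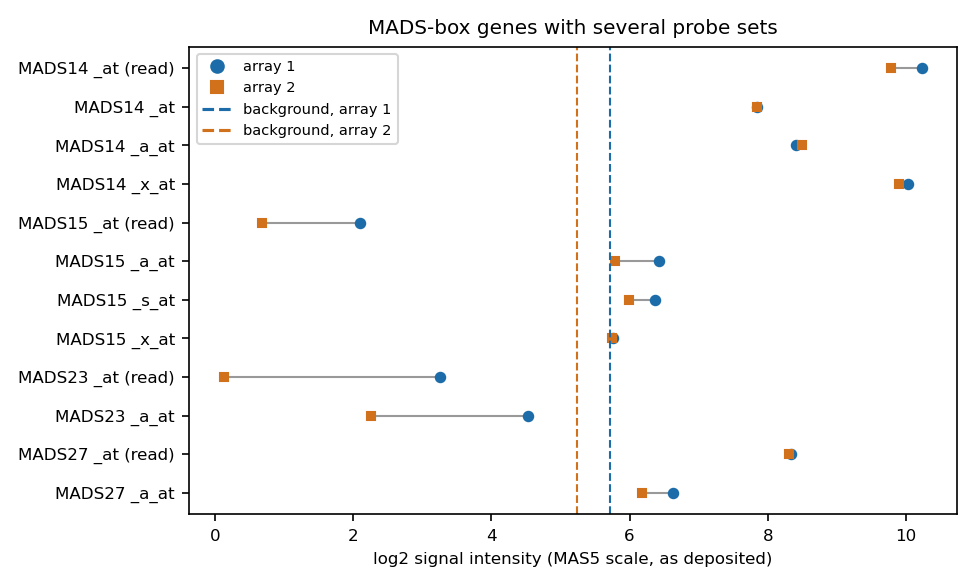
Log2 signal (x axis) of each probe set of the 4 MADS-box genes with several, on array 1 (circles) and array 2 (squares), with each array's background as a dashed line. The probe set used for the gene is marked as read, and for MADS15 it lies far left of the other 3, which are all above background.

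The members above background differed less between the arrays than the rest, whose median absolute log2 difference was 0.68. This contrast is in part built in, since the call asks for both arrays to pass. Over the 31 genes the log2 signals of the arrays correlated with a Pearson's r of 0.93, against 0.94 over all 57194 rice probe sets. Over the 17 genes above background r was 0.98, with no value over all genes above background to set beside it. These values describe agreement across genes, which are not replicates. None of the 17 was over 2-fold apart between the arrays, against 0.844% of all genes above background. Their median absolute log2 difference was 0.30, against 0.14 over all genes above background. These sets were not matched by signal, with median log2 signals of 8.46 and 9.77. Over all genes not above background on both arrays, the median absolute log2 difference was 0.92. Of the 17 genes, 7 were higher on array 2, against 47.4% of all genes above background. Of the 14 other members, 6 were over 2-fold apart, against 46.4% of all genes not above background on both arrays. These were MADS15, MADS16, MADS20, MADS23, MADS25 and MADS26, and since at least 1 signal of each lay below background, the size and direction of these gaps are not read here. MADS16 and MADS26 crossed background between the arrays, while the probe sets read for the other 4 stayed below it on both. For MADS15 this holds for 1 of 4 probe sets, as the other 3 were above background and less than 2-fold apart, with log2 differences of -0.64, -0.36 and -0.02. In all, 5 members were above background on 1 array only, against 5.62% of all genes.

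**Figure D3:**
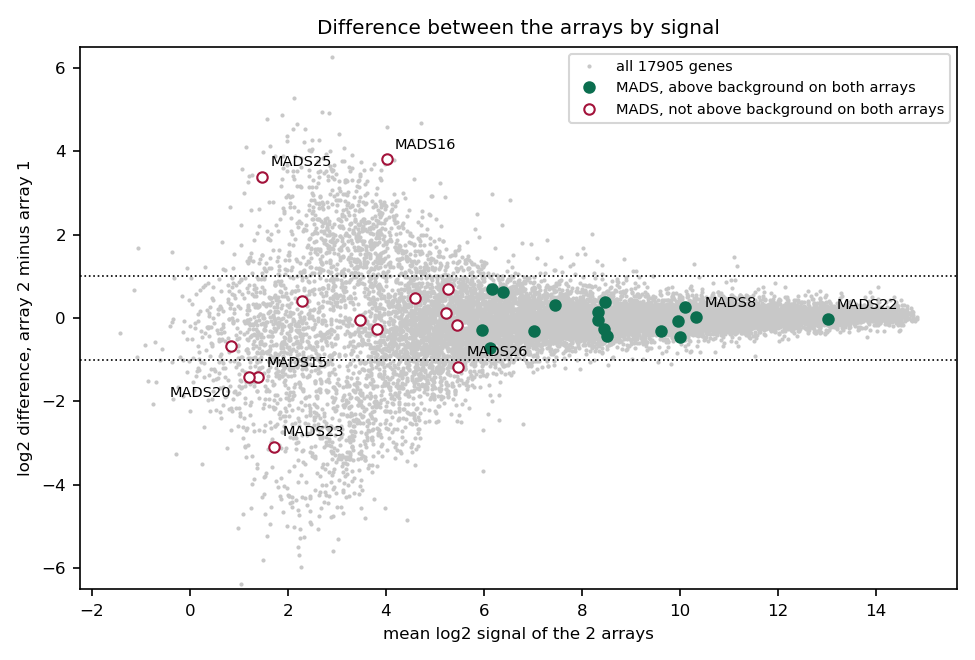
Log2 difference, array 2 minus array 1 (y axis), against mean log2 signal (x axis) for all 17905 genes (grey), with the 17 MADS-box genes above background on both arrays filled and the other 14 open. Dotted lines mark 2-fold, and no filled point lies beyond them, while 6 open points do.

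Some members are direct neighbours in the gene table, with 0 protein-coding genes between them. MADS14 lies next to MADS34, with MADS14 more than 20 times above background and MADS34 far below it on both arrays. MADS13 lies next to MADS33, and neither gene was above background on both arrays. MADS13 lay near background and passed it on array 2 alone, and MADS33 lay well below it. MADS1, just above background, lies next to DL, a YABBY gene of carpel identity, which had signals of 4.7 and 14.7 and was below background on both arrays.

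Regulators of flowering, chromatin and seed development were read from a list of 34 names. From that list, 12 genes were found with a single-gene probe set. Of these, 8 were above background, against 74.1% of all genes. The Polycomb complex is known to silence MADS-box genes in plants. Of its planned names, fie and EZ1 were read, while FIE1, FIE2, CLF, EMF2A and EMF2B were not in the gene table. The signals were 7729.2 and 8461.1 for fie (12.98 ± 0.09). They were 712.9 and 711.7 for the histone methyltransferase gene EZ1 (9.48 ± 0.00). Both genes were above background. So were the endosperm regulator NF-YB1 (11.46 ± 0.20) and the AP2-type gene RSR1 (7.07 ± 0.36).

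Of the flowering genes, the clock gene GI stood out from background, with signals of 2512.7 and 2131.3 (11.18 ± 0.17). The florigen gene Hd3a had signals of 60.8 and 41.4, the LEAFY homolog APO2 signals of 58 and 44.1, and LAX1, a gene of axillary meristems, signals of 89.5 and 54.7. These 3 genes were less than 2-fold above background on both arrays. The photoperiod gene Hd1 (52.5 and 33.9), DTH8 (11.1 and 2.6), DL and the meristem receptor gene FON1 (36.1 and 8.6) were below background on both arrays. Taking each array's highest reporter signal as background left 5 of the 12 genes above it, namely GI, fie, EZ1, NF-YB1 and RSR1, against 65.5% of all genes.

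**Figure D4:**
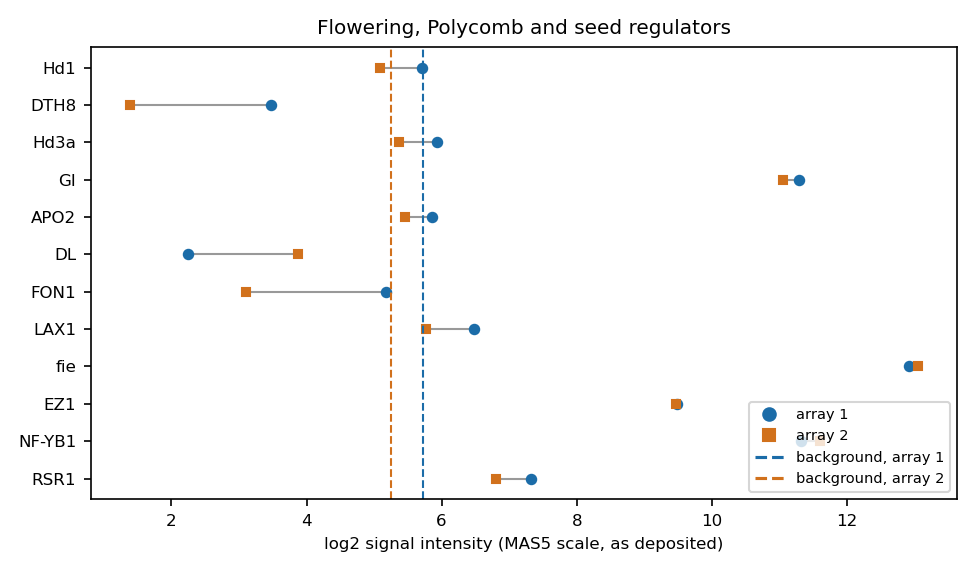
Log2 signal (x axis) of 12 regulators of flowering, chromatin and seed development (y axis) on array 1 (circles) and array 2 (squares), with each array's background as a dashed line. GI, fie, EZ1, NF-YB1 and RSR1 lie clear of both lines, and Hd3a, APO2 and LAX1 lie just to their right.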

How the data were processed

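The authors deposited a table of linear signal intensities with 57381 probe sets on each of 2 arrays. The submitters' processing notes name MAS5, and no version, scaling or detection setting was given in the sources used here. Leaving out the lowest and the highest 2% of its values, each array had a mean of 500.1, so each had been scaled on its own. Precision is limited by the number of arrays.

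Values were taken to the log2 scale with no further normalization. The platform's probe annotation pairs 22436 probe sets with 1 gene, 95 with several and 34850 with none, and all 31 members matched the gene table of assembly ASM3414082v1 by Entrez number; the table served for names and neighbours. For a gene with several probe sets, the suffix decided which one was used (_at, _a_at, _s_at, _x_at), then the highest mean. Members and lists were chosen with earlier results of these data known, and every member is named. MADS7 and MADS8, listed first as MADS45 and MADS24, were grouped by their other number. Of 34 planned regulator names, 14 gave the 12 genes, 15 were not in the gene table, 4 lacked a single-gene probe set, and IDS1 matched a metallothionein gene and was left out. With 1 group there was no test. Python 3.11.15, pandas 2.3.3, NumPy 2.4.6 and matplotlib 3.10.9 were used.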

Additional observations from a re-analysis of the deposited data

How the results depend on the processing

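Counts of MADS-box genes above background stayed within 1.5 times the 17 reported under 5 of 6 alternatives. The exception was a background of the median plus 3 scaled median absolute deviations of the reporters, at 588.2 and 573.4, which left 6 genes, both for the family and for its MIKC-type members, and 4 of the 12 regulators. The highest reporter as background left 13 members and 5 regulators. With 1 array left out, the members above background on the other ranged from 18 to 21, also among the MIKC-type genes, and the regulators stayed at 8. The 6 genes left by the strictest background are MADS8, MADS14, MADS22, MADS55, MADS56 and MADS58. Adding the gene that carries the name IDS1, a setting chosen after the data were seen, would give 9 of 13 genes. It is a metallothionein gene, so this is not a count of regulators. The family's median log2 signal of 6.13 was 6.43 with an offset of 16 added to the signals, 8.46 over the 17 genes above background alone, and between 5.92 and 6.08 on 1 array alone. The median log2 difference between the arrays, -0.04, was 0.03 after quantile normalization and -0.08 with all probe sets of a gene averaged. Quantile normalization moved the log2 level of any member by at most 0.061, averaging probe sets moved members above background by at most 0.957, and reading the brightest probe set moved MADS15 by 4.79. Levels of members not above background moved by up to 3.33 with the offset and are not firm. No paired analysis was possible because there is 1 group. No type I gene was found, so its planned count was not run.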
